A study of Drosophila melanogaster with 3 samples.

Results

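The proteasome is the large protease that degrades ubiquitin-tagged proteins in the cytoplasm and nucleus. Its barrel-shaped core has outer rings of alpha subunits, which gate the entry, and inner rings of beta subunits, some of which cut peptide bonds. A regulatory particle caps the core. The base of this cap, a ring of ATPases (Rpt) with scaffold and ubiquitin-receptor subunits (some of the Rpn), unfolds the substrate, and its lid, made of the other Rpn subunits, removes the ubiquitin chain. The fly embryo inherits proteasomes and their mRNAs from the mother. Drosophila also has additional gene copies of several subunits, named with the suffix T or R, that are known for expression in the male germ line.

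The subunit genes were chosen by name alone: every probe whose current gene symbol starts with Prosalpha, Prosbeta, Rpn or Rpt followed by a number, with a value on all 3 arrays. Of the 12144 probes on the array 41 met this rule, and they belong to 38 genes, made up of 7 lid, 7 base, 13 core and 11 testis-specific genes. They were set against the 10183 genes and unassigned probes (features) that were tested. Another 10 of the 48 genes with such names had no probe of their own that the annotation used here names. These are Rpn9 of the lid, Rpn10, Rpt1 and Rpt6 of the base, the core gene Prosbeta1, and the testis copies Prosalpha1R, Prosalpha3T, Prosbeta2R1, Prosbeta5R2 and Rpt6R. Rpn10 sits between lid and base and was counted with the base.

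Laser-wounded syncytial embryos of Drosophila melanogaster were compared with unwounded embryos that were handled the same way, to ask which transcripts change while a single large cell repairs its cortex. Embryos of both conditions were collected over 0 to 1 h, carried the actin reporter sGMCA, were dechorionated by hand, were held under halocarbon oil and were frozen at 30 min, counted for wounded embryos from the wound. Wounded RNA was labelled with Cy3 and unwounded RNA with Cy5, and both were hybridised to 1 spotted cDNA array in each of 3 independent experiments, numbered 3, 4 and 5. The same dyes were used for the same condition on all 3 arrays, so a dye effect and a wounding effect cannot be told apart. How many embryos were combined for an array is not given in the sources used here.

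All values are log2 ratios of wounded over unwounded embryos, given as mean ± SD over the 3 arrays. The sign is the likely one and not a stated one: it rests on genes whose direction is written in the study's text, of which 12 of 12 tested raised ones were above 0 and 13 of 13 tested lowered ones below 0, and this is no independent evidence. With the opposite reading every direction below turns round. A gene is said to rise or fall where limma's adjusted p was under 0.05 and the change was at least 1.5-fold, which is 0.585 on the log2 scale. By this rule 237 features (2.33%) changed, 171 lower and 66 higher, with adjusted p-values between 0.0365 and 0.0493. The arrays correlated across features with Pearson's r between 0.315 and 0.498, which describes the arrays and is no test, since genes are not replicates. A ratio gives no level, so that it can show neither how abundant a transcript was nor whether a tissue's marker was present. In whole embryos fewer cells or nuclei of a type and less RNA in each cannot be told apart.

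The median ratio of wounded over unwounded embryos was lower for lid and for base genes than for core genes, while single genes of these parts overlapped. The lid gene Rpn11 fell, no proteasome gene rose, and the other 37 did not pass. That 1 call in 38 genes stands beside 1.68% of all features called lower and 0.648% called higher. With no minimum fold, the lid gene Rpn8 passed as well, so that 2 of 38 genes were lower, where 3.16% of all features were, and 0 were higher, where 0.864% of all features were. The median of the gene means was -0.27 for the lid and -0.11 for the base, against 0.0074 for the core, -0.013 for the testis copies and 0.0014 for all features. Of the 14 lid and base genes 9 were below 0 on every array and none was above 0 on every array. Of the 13 core genes 2 were below 0 on every array and 1 was above. For all features these shares were 25.0% and 25.3%. These are counts over subunits of one complex on the same arrays, and no test was made of a group.

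**Figure D1:**
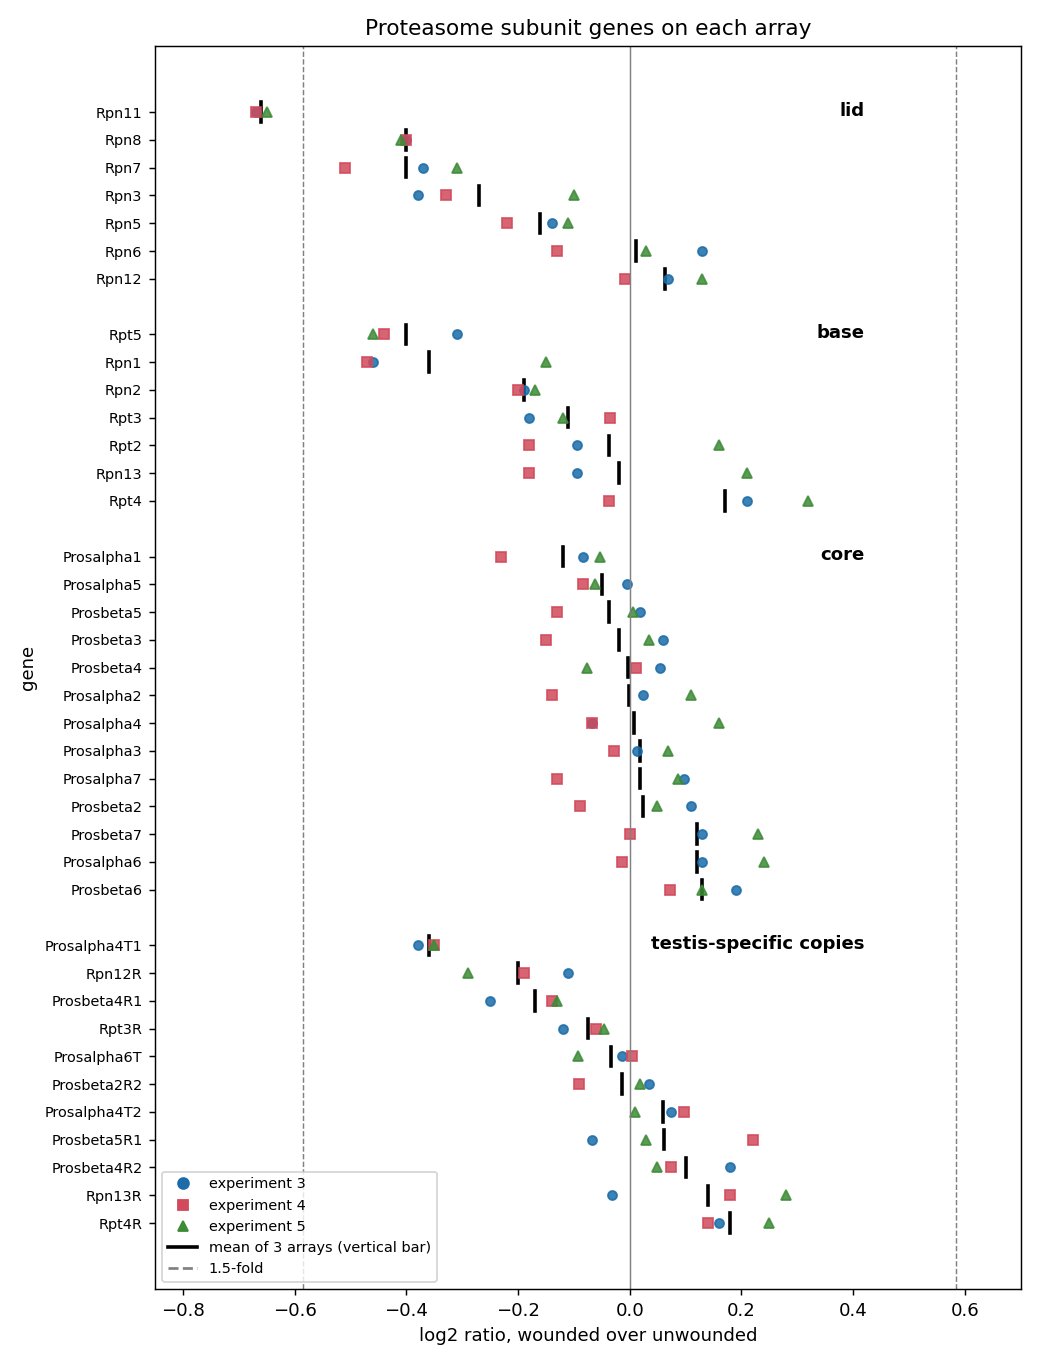
Log2 ratio of wounded over unwounded embryos (horizontal axis) for each of the 38 proteasome genes, with 1 symbol per array, a black bar at the mean of the 3 arrays and dashed lines at a 1.5-fold change. Rpn11 is the gene whose mean of -0.66 lies beyond the dashed line. The means of most lid and base genes lie to the left of 0, while those of the 13 core genes stay within 0.13 of 0.

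Rpn11 encodes the metalloprotease of the lid, which cuts the ubiquitin chain from a substrate as it enters the core. Its log2 ratio, read from the 1 clone RE07468, was -0.67, -0.67 and -0.65 in experiments 3, 4 and 5. Of the 38 genes 35 had 1 probe, and for these agreement between arrays does not check the clone. All 3 arrays were beyond the 1.5-fold line, at a mean of -0.66 ± 0.013, which is 1.58-fold lower in wounded embryos (limma, adjusted p = 0.0365). Of all features 1.73% had a mean this low and 0.795% an SD this small. Without experiment 3, 4 or 5 the mean was -0.66, -0.66 and -0.67, and the adjusted p in limma was 0.147, 0.0771 and 0.180. The call was thus lost, but 0 of all features were called in these fits, so this loss is not particular to Rpn11. The call was also lost, with those of all other features, when arrays were scaled to the same spread (limma, adjusted p = 0.0620). The same held in a test against a 1.5-fold change (limma's treat, adjusted p = 1).

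Rpn8 encodes the partner of Rpn11 in the lid, which shares its MPN fold but has no protease activity. It had -0.40, -0.40 and -0.41 in experiments 3, 4 and 5. The arrays were nearly equal, at -0.40 ± 0.0088 or 1.32-fold lower, and 0.344% of all features had an SD this small. The adjusted p was 0.0433 in limma, but the change was under the 1.5-fold minimum. Without any 1 array the adjusted p of Rpn8 lay between 0.106 and 0.211 in limma.

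The other lid genes encode PCI-domain scaffold subunits, and they did not move alike. Rpn7 had -0.37, -0.51 and -0.31 in experiments 3, 4 and 5 (-0.40 ± 0.10, limma, adjusted p = 0.0596). Rpn3 had -0.38, -0.33 and -0.10 (-0.27 ± 0.15, limma, adjusted p = 0.142). Both were below 0 on every array, with Rpn3 much closer to 0 in experiment 5. Rpn5 was also below 0 throughout, with -0.14, -0.22 and -0.11 (-0.16 ± 0.054, limma, adjusted p = 0.217). Rpn6, which clamps the lid onto the core, had 0.13, -0.13 and 0.030 (0.012 ± 0.13, limma, adjusted p = 0.937). Rpn12 had 0.069, -0.0085 and 0.13 (0.063 ± 0.069, limma, adjusted p = 0.575). Neither Rpn6 nor Rpn12 kept a sign across the arrays. Rpn12 was read from 1 clone, RE36854, spotted from 2 amplifications, with means of 0.093 and 0.034. The lid median was -0.37, -0.33 and -0.11 in experiments 3, 4 and 5, so that experiment 5 was the array on which the lid stood closest to 0.

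Sem1, a small acidic lid subunit whose name lies outside the rule, was measured by 2 clones and fell. The clone RH01212 had -0.60, -0.71 and -0.90 in experiments 3, 4 and 5, and RH34416 had -0.58, -0.60 and -0.82. Both clones were beyond or close to the 1.5-fold line on every array and lowest in experiment 5, and their average was -0.70 ± 0.14, or 1.62-fold lower (limma, adjusted p = 0.0365). It was in the list of proteasome factors and is not in the counts of the 38 genes.

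In the base, the genes ran from -0.40 to 0.17. Rpt5, an ATPase whose tail docks into the core and helps to open its gate, had -0.31, -0.44 and -0.46 in experiments 3, 4 and 5 (-0.40 ± 0.081, limma, adjusted p = 0.0516). Rpn1, the scaffold that receives ubiquitin shuttles, had -0.46, -0.47 and -0.15 (-0.36 ± 0.18, limma, adjusted p = 0.107). Rpn2, the scaffold paired with Rpn1 in the base, had -0.19, -0.20 and -0.17 (-0.19 ± 0.018, limma, adjusted p = 0.154). These genes were below 0 on all arrays without passing, and Rpn1 was less low in experiment 5 on both of its clones. The clone HL01707 had -0.61, -0.51 and -0.19, and LD21723 had -0.31, -0.43 and -0.10.

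The remaining base genes had means from -0.11 for Rpt3 to 0.17 for Rpt4. Rpt3 was also below 0 on every array, with -0.18, -0.035 and -0.12 in experiments 3, 4 and 5. Rpt2, another ATPase that takes part in gate opening, had -0.095, -0.18 and 0.16. The ubiquitin receptor gene Rpn13 had -0.094, -0.18 and 0.21, and its 2 clones gave the same signs on each array, AT08455 with -0.069, -0.20 and 0.24 and HL05577 with -0.12, -0.15 and 0.19. Rpt4 was the highest base gene, with 0.21, -0.037 and 0.32 (0.17 ± 0.18, limma, adjusted p = 0.322). The ATPases Rpt5 and Rpt4, which lie in one ring, thus stood at opposite ends of the base, although Rpt4 was not above 0 in experiment 4.

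**Figure D2:**
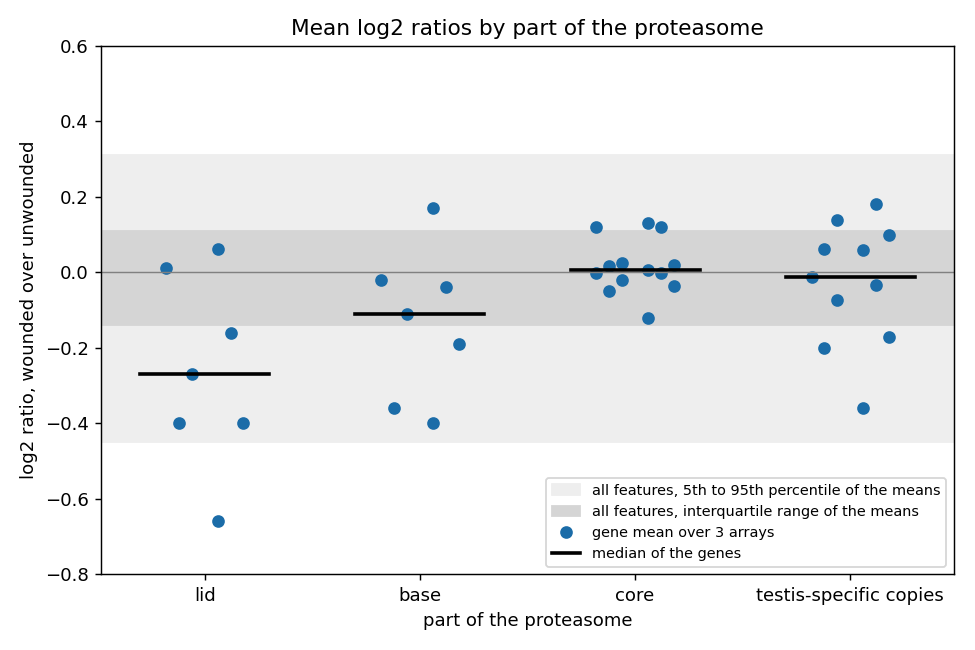
Mean log2 ratio over 3 arrays for each gene (points) by part of the proteasome, with the median of the genes as a bar and grey bands for the 5th to 95th percentile and the interquartile range of all 10183 feature means. The lid median of -0.27 and the base median of -0.11 lie below the core median of 0.0074, and the lid and base genes are more spread than the core genes.

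The means of the 13 core genes lay between -0.12 and 0.13. None of these genes had an unadjusted p under 0.05 in limma, whereas 14.9% of all features did on the lower side and 10.1% on the higher side. Of the 14 lid and base genes 8 had a mean below the lowest core gene, and Rpt4 of the base, at 0.17, was above the highest. These limits were not extreme. Of all features 27.3% had a mean as low as the lowest core gene, Prosalpha1, and 22.2% one as high as Prosbeta6. The highest core genes were Prosbeta6 with 0.19, 0.072 and 0.13 in experiments 3, 4 and 5, and Prosalpha6 with 0.13, -0.013 and 0.24. Prosbeta7 followed with a mean of 0.12 ± 0.11. Of these, Prosbeta6 was above 0 on every array (0.13 ± 0.058, limma, adjusted p = 0.280).

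Prosalpha1 was the lowest core gene, with -0.084, -0.23 and -0.054 (-0.12 ± 0.092, limma, adjusted p = 0.335). Of the beta genes with a protease site, Prosbeta5, which gives the chymotrypsin-like activity, had -0.037 ± 0.085, and Prosbeta2, which gives the trypsin-like activity, had 0.024 ± 0.10. The median was 0.0074 over 7 alpha genes and 0.010 over 6 beta genes.

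The core genes shared an array pattern. In experiments 3 and 5 their median was 0.055 and 0.069, and in experiment 4 it was -0.083, while the median of all features was 0.0036, 0.011 and -0.014 on these arrays. Experiment 4 held the lowest value of 12 of the 13 core genes, of 5 of 7 lid genes, of 5 of 7 base genes and of 2 of 11 testis copies, against 46.3% of all features. The lid median minus the core median was -0.42, -0.24 and -0.18 in experiments 3, 4 and 5, and the base median minus the core median was -0.24, -0.093 and -0.19. Both medians thus stood below the core median on each array. The lid median minus the base median was -0.18, -0.15 and 0.0098, so that lid and base were not separated in experiment 5. Of the core clones, those of Prosbeta2, Prosbeta3, Prosbeta5, Prosbeta6, Prosbeta7, Prosalpha5 and Prosalpha7 came from the LD clone set. So did clones of Rpn1, Rpn2, Rpn6 and Rpn7. All 2807 probes of this set had medians of 0.075, 0.032 and 0.065 in experiments 3, 4 and 5. Its 11 proteasome clones had means from -0.40 to 0.13. The part of the clone set in the gaps between lid, base and core was not tested.

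General subunit genes and their testis-specific copies could be set side by side in 11 pairs. With 3 arrays an exact two-sided sign-flip test cannot go below p = 0.25, so the pairs were not tested. The general gene minus the copy had the same sign on every array in 6 pairs, 4 of them with the general gene higher. Of all features, as single ratios and not as differences, 25.0% were below 0 on every array and 25.3% above. The count of pairs is therefore not read as a result about the copies. None of the 11 copies passed limma's test.

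The largest difference was in the alpha4 pair. Prosalpha4 had -0.068, -0.068 and 0.16 in experiments 3, 4 and 5, and Prosalpha4T1 had -0.38, -0.35 and -0.35. The values of the pair did not overlap, and the difference was 0.37 ± 0.12. Prosalpha4T1, with a mean of -0.36 ± 0.016 (limma, adjusted p = 0.0523), was the lowest testis copy and lower than every core gene. The other copy, Prosalpha4T2, had 0.074, 0.098 and 0.0092, and differed from Prosalpha4 by -0.053 ± 0.17, so that the copies of this gene stood apart from each other.

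Rpn12 had 0.069, -0.0085 and 0.13, and Rpn12R had -0.11, -0.19 and -0.29, a difference of 0.26 ± 0.14. Prosbeta4 had 0.055, 0.012 and -0.076. Its copy Prosbeta4R1 had -0.25, -0.14 and -0.13, below Prosbeta4 on each array by 0.17 ± 0.13 on average. The copy Prosbeta4R2 had 0.18, 0.074 and 0.049, above Prosbeta4 on each array, and the general gene minus this copy was -0.10 ± 0.037. The copies of Prosbeta4 therefore lay on opposite sides of it.

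**Figure D3:**
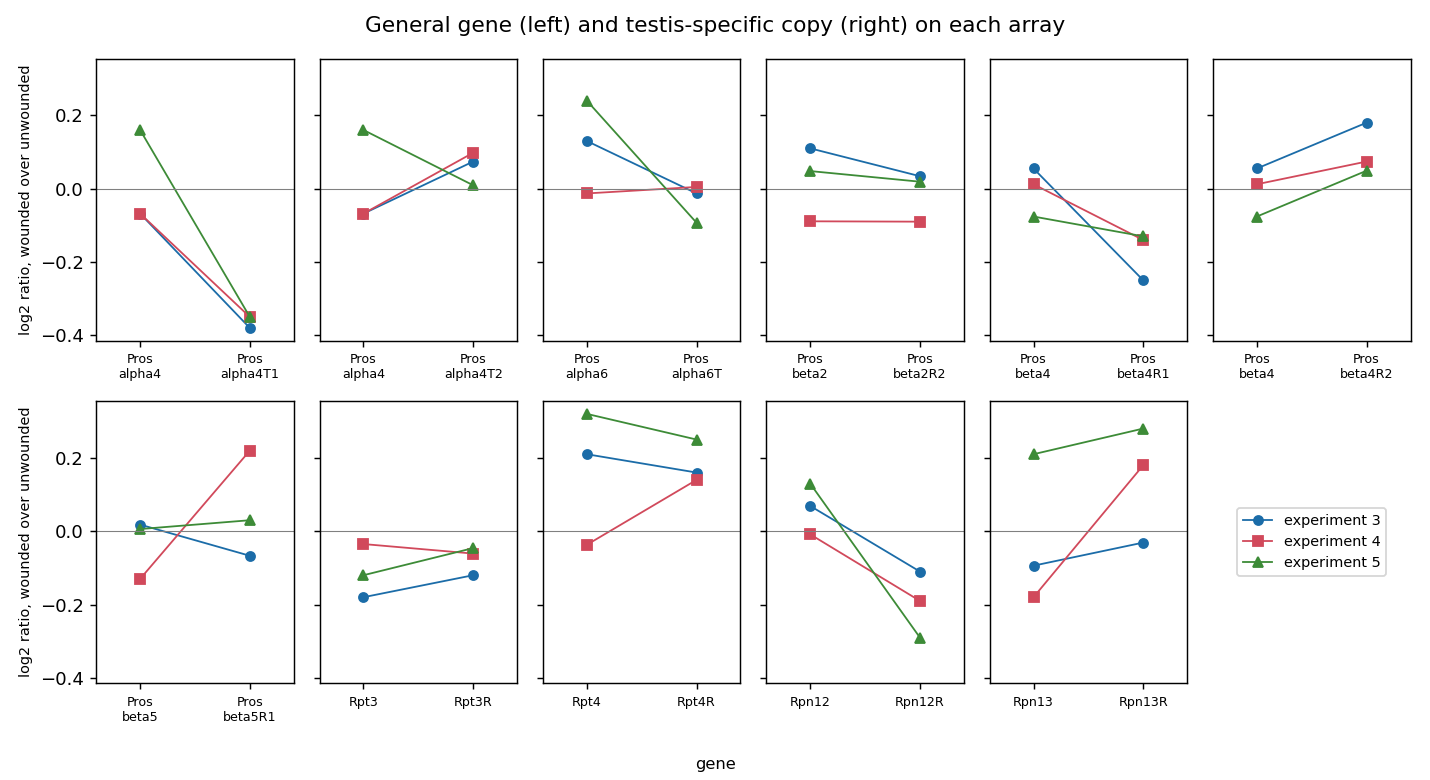
Log2 ratio of wounded over unwounded embryos (vertical axis) for each general subunit gene, at the left of its panel, and its testis-specific copy, at the right, with the values of an array joined by a line. The drop from Prosalpha4 to Prosalpha4T1 is seen on all 3 arrays and averages 0.37, while most other pairs cross or differ by less.

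In the Rpn13 pair the general gene was below its copy on every array, by -0.063, -0.35 and -0.072 in experiments 3, 4 and 5 (-0.16 ± 0.17), and this was the largest mean difference in that direction among the 11 pairs. Rpn13 and Rpn13R had means of -0.019 and 0.14, and experiment 4 held most of their difference. Prosalpha6 and Prosalpha6T had means of 0.12 and -0.034, a difference of 0.15 ± 0.18 that did not keep its sign. Prosbeta2 and Prosbeta2R2 had 0.024 and -0.013, and Prosbeta5 and Prosbeta5R1 had -0.037 and 0.061. Among the regulatory particle genes, Rpt3 and Rpt3R had -0.11 and -0.074, and Rpt4 and Rpt4R had 0.17 and 0.18. Rpt4R was above 0 on every array, with 0.16, 0.14 and 0.25 (0.18 ± 0.056, limma, adjusted p = 0.171), and was the highest of the 38 genes. Rpt4 and Rpt4R were thus the highest base gene and the highest copy, and they differed by less than their spread.

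A copy and its general gene are related in sequence, and a cDNA spot can bind both transcripts, so that the ratio of a copy may hold signal of the general gene. Of the 11 testis copy clones 10 came from the AT clone set, as did 3 of the 30 clones of general genes. All 1049 probes of this set had median values of -0.068, 0.030 and 0.043 in experiments 3, 4 and 5. The list of testis markers held 30 genes, and limma could be run on 17 of them. None passed both criteria. An unadjusted p under 0.05 in limma was found for 4, which did not share a direction. These were vis (-0.36) and bam (-0.22) on the lower side and Taf12L (0.24) and bol (0.23) on the higher side. Among all features 14.9% had such a p on the lower side and 10.1% on the higher side. The median of the testis marker list was 0.059.

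The lid has 2 relatives built on the same plan of PCI and MPN subunits, the COP9 signalosome, which removes Nedd8 from cullins, and the translation initiation complex eIF3. Neither was low as a list. Of 5 tested COP9 genes none was called, where 2.33% of all features were, and the median was 0.12. Of 14 eIF3 genes 8 were above 0 on every array, against 25.3% of all features, and the median was 0.14.

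Among the MPN subunits, Rpn11 and Rpn8 had -0.66 and -0.40, whereas CSN6 had 0.16 ± 0.14, eIF3f1 0.20 ± 0.16 and eIF3h 0.19 ± 0.16. CSN6, the 1 MPN gene of COP9 that was tested, had 0.16, 0.015 and 0.30 in experiments 3, 4 and 5. The means of these MPN genes outside the lid were thus above 0 where those of the lid were below. None of those outside the lid passed limma's test, and eIF3h had 0.00028 in experiment 4. The eIF3 gene that fell was eIF3j, which encodes a loosely bound subunit outside these folds, with -0.56, -0.73 and -0.70 (-0.66 ± 0.090, limma, adjusted p = 0.0365). The COP9 gene with the lowest mean, CSN7, had -0.18 ± 0.13.

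**Figure D4:**
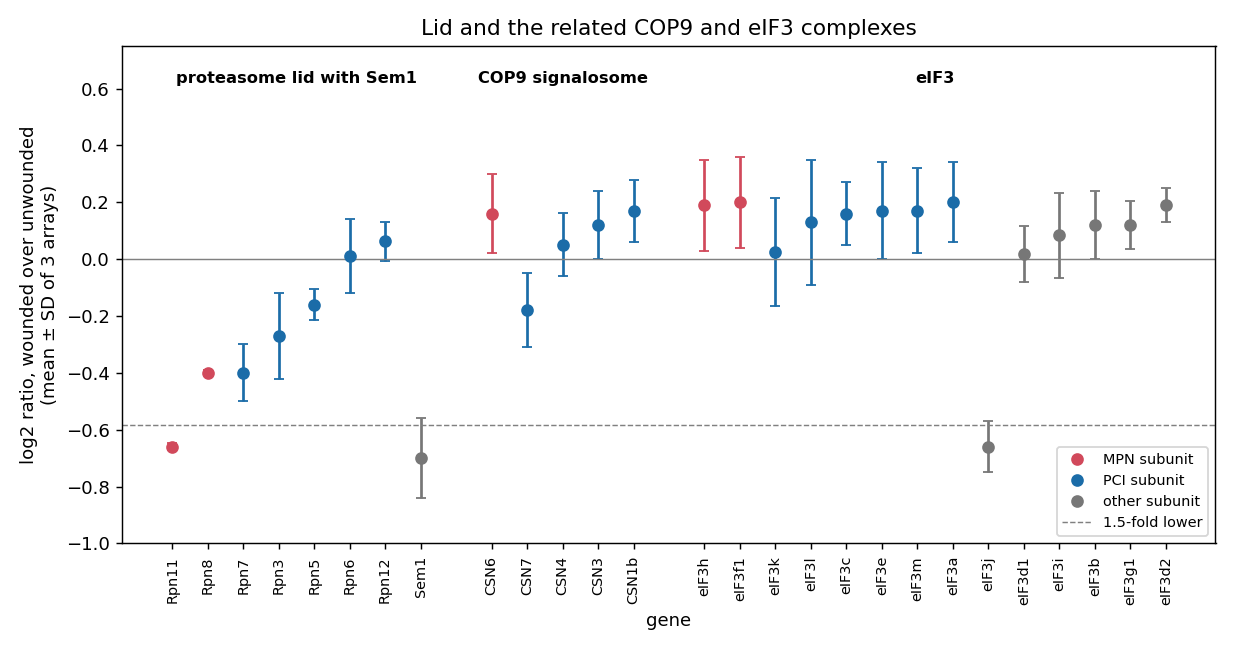
Log2 ratio of wounded over unwounded embryos (mean ± SD of 3 arrays) for the genes of the proteasome lid with Sem1, the COP9 signalosome and eIF3, coloured by subunit type. Rpn11, Sem1 and eIF3j lie below the dashed line of a 1.5-fold fall, and the COP9 and eIF3 genes other than CSN7 and eIF3j have means above 0.

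Genes around the proteasome were counted in lists. Of all features 1.68% were called lower and 0.648% higher. In lists as short as these, 0 or 1 call therefore says little about the list. Of 11 tested proteasome factors Sem1 fell and the others did not pass. They included the core assembly chaperone gene Pomp (0.072 ± 0.16), the activator gene REG (0.053 ± 0.061), the shuttle gene Rad23 (-0.18 ± 0.18) and cnc, whose product activates proteasome genes (-0.16 ± 0.12). The median of that list was -0.091. Of the proteasome-bound deubiquitinases that it held, Usp14 had -0.11 ± 0.079 and Uch-L5 had -0.042 ± 0.15.

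Of 11 other deubiquitinases Uch fell and none rose, beside 1.68% of all features called lower and 0.648% called higher. Uch, a small ubiquitin hydrolase, had -0.79, -0.92 and -0.57 in experiments 3, 4 and 5 (-0.76 ± 0.18 or 1.69-fold lower, limma, adjusted p = 0.0367). Usp5, which takes apart free ubiquitin chains, had -0.33 ± 0.045 (limma, adjusted p = 0.0629), and scny was on the other side with 0.28 ± 0.073. The median of the list was 0.060, so that its fall was that of 1 gene.

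Among the genes that supply ubiquitin and pull substrates apart none passed both criteria. The polyubiquitin genes Ubi-p63E and Ubi-p5E had -0.29 ± 0.058 and -0.29 ± 0.065 (limma, adjusted p = 0.0849 and 0.0862). None of the 6 tested ubiquitin and E2 genes was called, and no E1 gene was among them. Of these 6 genes 3 were below 0 on every array and 1 was above, where 25.0% and 25.3% of all features were. Of 10 tested genes of p97 and endoplasmic reticulum degradation none was called. Der-1, a membrane protein of that route, had -0.42, -0.71 and -0.55 (-0.56 ± 0.15, limma, adjusted p = 0.0407), just under the 1.5-fold minimum. The p97 gene TER94 had -0.25 ± 0.061 and its cofactor genes p47 and Npl4 had -0.39 ± 0.13 and -0.33 ± 0.13. Of the 10 means in this list 5 were below 0 and 5 above, with a median of -0.12, and the highest were Faf2 with 0.19 ± 0.10 and sip3 with 0.16 ± 0.16. In the ligase list none of 21 cullin and anaphase-promoting complex genes was called. Its lowest p-values were those of APC7 (-0.44 ± 0.073, limma, adjusted p = 0.0435) and of cort, the female meiotic activator of that complex (-0.27 ± 0.042, limma, adjusted p = 0.0878). The ligase list's median was 0.0029.

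Some of the transcripts that mark the stage of the embryo differed between the conditions as well. Of 26 tested early zygotic genes, which the embryo itself transcribes, 12 rose and 0 fell, with a median of 0.77, 0.44 and 0.52 in experiments 3, 4 and 5. Of 29 tested maternal RNAs 4 fell and 0 rose, with a median of -0.073, -0.11 and 0.0011. Of all features 0.648% rose and 1.68% fell. Both lists were drawn up with earlier results of these data known. They hold genes that the study lists among its most changed, such as nullo, dpn, dhd and exu. The counts are therefore no independent evidence of a difference in stage. The maternal means lay on both sides of 0, 18 below and 11 above, with a median of -0.042. The part of embryo stage in the ratios of the proteasome genes was not tested.

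No proteasome gene measured here lies next to another one in the annotation. Genes of other names overlap 3 of the lowest lid and base genes, and a spot of double-stranded cDNA does not separate strands. Slik, which overlaps Rpn8, had 0.19, CG34376, which overlaps Rpn7, had 0.036, and Hrd3, which overlaps Rpt5, had 0.073. CG42322, which overlaps Prosalpha4T1, and CG31142, which overlaps Rpt2, each had -0.11. Larger ratios were those of rg, which overlaps Rpn13R and had 0.39, and of Alg12, which overlaps Rpt3R and had 0.29. CG34376 was below 0 on 2 of its 3 arrays. The part of overlapping transcripts in these ratios was not tested.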

How the data were processed

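RNA from wounded (Cy3) and unwounded (Cy5) embryos was compared on 3 spotted cDNA arrays, fewer than the replicates stated in the methods for this time point. Further arrays were not analysed here. The deposited values are log2 ratios. Per the methods, the authors discarded spots that were too close to background, too dim in each channel or questionable, took log2 ratios and loess normalized each array in limma (its version is not given in the sources used here). Loess sets the bulk of ratios near 0, so a shift of most transcripts would be missed. How bright each spot was is not known here, and 3 arrays limit the precision. Control spots (160) were left out. Probes were named by the platform's annotation, updated through gene identifiers to RefSeq's Release 6 gene table. The probe that names Prosbeta2R1 beside another gene was not counted as a member. Probes of 1 gene were averaged on each array.

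The mean of 3 arrays was tested against 0 in limma 3.58.1 (R 4.3.3) as a two-sided moderated test, and p-values were adjusted over 10183 features by Benjamini-Hochberg. The test was checked on simulated data with independent noise, which cannot show the effect of a dye or of a pattern shared by genes on an array. All members may be named. Values on each array were given for called members, the lowest and highest general genes, genes with 2 probes and the testis pairs; of each list, called members or those with the smallest p. Core genes without values on each array, Rpt2, Rpt3, CSN6 and further list genes were named after their values were seen. The members and gene lists were chosen with earlier results of these data known. Alternatives were leaving out an array, scaling, centring, array weights, single probes, features on at least 2 arrays, other thresholds and a robust prior.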

Additional observations from a re-analysis of the deposited data

How the results depend on the processing

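Calls rested on all 3 arrays and on the threshold. Leaving out 1 array gave 0 to 0 calls among all features (237 with all arrays), the 38 proteasome genes (1), the related lists (3) and the marker lists (16). At an unadjusted p under 0.05 there were then 5, 7 and 7 proteasome genes without experiment 3, 4 and 5, against 11, and 1473, 2446 and 1675 of all features, 13, 18 and 14 related genes and 27, 35 and 29 markers. Scaling the arrays to the same spread, and the test against a 1.5-fold change, also gave 0 calls in each of these (Rpn11 -0.67 and -0.66, not called). In limma, 11 and 0 proteasome genes, 2546 and 118 of all features and 32 and 12 markers had an unadjusted p under 0.05 in these settings. With no minimum fold 410 features, 2 proteasome genes (Rpn8, at -0.40, was the addition) and 5 related genes passed. Under every other setting Rpn11 was the 1 proteasome gene called. The base median lay between -0.15 and -0.078 and that of the testis copies between -0.036 and -0.0042 with 1 array left out, and the lid median between -0.35 and -0.21. The core median, 0.0074 with all arrays, was -0.020, 0.047 and -0.016 without experiment 3, 4 and 5, so its sign is not settled, and without experiment 3 the base median of -0.078 stood closest to it.

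Signs changed for genes near 0. Scaling gave Prosbeta4 0.0010 and Prosalpha4 -0.0024. Array weights gave Prosbeta3 0.00088, Prosbeta4 0.0094, Prosalpha2 0.0083 and Prosalpha4 -0.0068. With 1 array left out, the ranges were -0.14 to 0.030 for Rpt2, -0.13 to 0.059 for Rpn13, -0.049 to 0.082 for Rpn6, -0.064 to 0.012 for Prosbeta5, -0.060 to 0.047 for Prosbeta3, -0.032 to 0.034 for Prosbeta4, -0.021 to 0.080 for Prosbeta2, -0.057 to 0.068 for Prosalpha2, -0.0075 to 0.041 for Prosalpha3, -0.068 to 0.045 for Prosalpha4, -0.020 to 0.092 for Prosalpha7, -0.036 to 0.026 for Prosbeta2R2 and -0.018 to 0.12 for Prosbeta5R1. The cause was not tested. Each ratio sets wounded against unwounded embryos of 1 experiment, so the test was already paired by experiment, and no further block was fitted.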

Other observations

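Clones of further subunits are on the array without a name in the annotation used here. The study's supplementary table, held here only in part and sorted by size of change, gives the clone AT14053 to Rpn10, the ubiquitin receptor between lid and base, and LD17530 to the lid gene Rpn9. AT14053 had -0.41, -0.35 and -0.30 in experiments 3, 4 and 5 (-0.35 ± 0.052, limma, adjusted p = 0.0589), and LD17530 had -0.16, -0.30 and -0.33 (-0.26 ± 0.089, limma, adjusted p = 0.113). Both were below 0 on every array, but genes near 0 would not be in the part of the table held here, so these clones were in effect chosen by their values and add no support. The probe that names Prosbeta2R1 beside another gene had 0.046, 0.048 and -0.062.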
